A study of Mus musculus with 2 samples.

Results

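A set of 9 genes named for the megakaryocyte lineage was followed through DNase I hypersensitivity maps of a mouse erythroid cell system. They encode surface proteins and granule contents of megakaryocytes and platelets: Itga2b, Itgb3, Gp1ba, Gp5, Gp9, Treml1, Pf4, Ppbp and Vwf. All 9 members were found among 22372 protein-coding genes of the mm9 annotation. For each gene, every peak with its summit inside the gene body or within 20 kb on either side was taken. This gave 304 peaks, 67 and 81 in G1E-ER4 lists 1 and 2 and 70 and 86 in G1E lists 1 and 2. Peaks sharing 1 bp or more were joined across lists, which gave 119 sites.

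Both cell states are male lines of mouse strain 129, labelled as coming from the embryonic stem cell stage. G1E cells are erythroid progenitors that lack Gata1 and received no treatment. In G1E-ER4 cells Gata1 was put back, and these cells were collected 24 h after the addition of 10 nM beta-estradiol, which starts their maturation. As general background on these lines, the restored protein is Gata1 fused to the ligand-binding part of the estrogen receptor. Cell line, restored gene and estradiol differ together between the states and cannot be told apart. For each state 1 sample gave 2 lists of 100000 peaks, and the read depth behind the lists is unknown. With 1 sample per state no test between states was made, and the spread between the 2 lists of a state, which may be technical, serves as the error. Peak strength is given as a percentile within its own list, with 100 for the strongest peak. The lists differ in peak width, with medians of 579 and 836 bp in G1E-ER4 and 520 and 646 bp in G1E. In peak maps of a cell population, the share of cells with a site open and the degree of opening in each cell cannot be told apart.

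Megakaryocytes and red cells arise from a common progenitor, and both lineages depend on Gata1. ETS factors such as Fli1, together with Runx1 and Gata1, are known to drive the genes of platelet surface receptors. The integrin chains encoded by Itga2b and Itgb3 form the platelet fibrinogen receptor, and Itga2b is also switched on in early blood progenitors. Gp1ba, Gp5 and Gp9 encode subunits of the receptor that catches von Willebrand factor, the product of Vwf. Pf4 and Ppbp encode chemokines stored in platelet alpha-granules, and Treml1 encodes a receptor carried to the platelet surface from the same granules. Vwf is also made by endothelial cells.

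The DNA of 8 elements is given here because the results turn on them. They are 4 windows before a gene start, 2 at genes with promoter peaks and 2 at genes without, and 4 windows of 200 bp around summits found in all 4 lists. Sequences are from mm9, written 5′ to 3′ on the strand of the gene, and capitals mark matches to the GATA words, spelled AGATAA or AGATAG or TGATAA or TGATAG, or to the ETS words, spelled CGGAAG or AGGAAG, on either strand.
Itga2b, before the start, chr11:102331198-102331397, minus strand: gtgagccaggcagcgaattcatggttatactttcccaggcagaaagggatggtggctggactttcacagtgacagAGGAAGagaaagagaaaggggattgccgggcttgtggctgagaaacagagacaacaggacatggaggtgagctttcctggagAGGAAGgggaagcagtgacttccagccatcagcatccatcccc
Gp1ba, before the start, chr11:70452424-70452623, plus strand: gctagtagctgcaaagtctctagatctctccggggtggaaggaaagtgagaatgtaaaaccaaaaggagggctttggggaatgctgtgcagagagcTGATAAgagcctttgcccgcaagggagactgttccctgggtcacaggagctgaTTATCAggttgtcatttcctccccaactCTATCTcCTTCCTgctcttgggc
Ppbp, before the start, chr5:91197344-91197543, plus strand: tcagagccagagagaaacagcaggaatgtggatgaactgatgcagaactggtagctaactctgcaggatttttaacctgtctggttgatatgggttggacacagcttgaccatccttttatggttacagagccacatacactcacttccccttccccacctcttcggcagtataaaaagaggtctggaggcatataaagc
Vwf, before the start, chr6:125496592-125496791, plus strand: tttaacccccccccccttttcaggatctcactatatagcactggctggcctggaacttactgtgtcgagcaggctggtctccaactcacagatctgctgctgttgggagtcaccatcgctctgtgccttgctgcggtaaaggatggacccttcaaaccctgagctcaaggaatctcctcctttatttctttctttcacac
Itga2b, first summit inside the gene, chr11:102328435-102328634, minus strand: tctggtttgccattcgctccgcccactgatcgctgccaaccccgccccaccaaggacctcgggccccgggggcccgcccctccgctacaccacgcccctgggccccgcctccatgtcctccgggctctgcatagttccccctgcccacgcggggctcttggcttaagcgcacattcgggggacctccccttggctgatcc
Gp9, upstream summit, chr6:87725974-87726173, plus strand: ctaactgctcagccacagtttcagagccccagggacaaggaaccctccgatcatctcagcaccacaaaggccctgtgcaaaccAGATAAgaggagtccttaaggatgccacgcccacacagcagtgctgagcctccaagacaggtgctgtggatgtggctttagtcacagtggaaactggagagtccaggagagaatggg
Itgb3, intron summit, chr11:104483500-104483699, plus strand: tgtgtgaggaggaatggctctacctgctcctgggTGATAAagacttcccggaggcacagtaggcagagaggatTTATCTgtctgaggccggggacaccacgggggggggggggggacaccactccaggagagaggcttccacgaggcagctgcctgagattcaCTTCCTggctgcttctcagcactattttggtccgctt
Pf4, downstream summit, chr5:91204669-91204868, plus strand: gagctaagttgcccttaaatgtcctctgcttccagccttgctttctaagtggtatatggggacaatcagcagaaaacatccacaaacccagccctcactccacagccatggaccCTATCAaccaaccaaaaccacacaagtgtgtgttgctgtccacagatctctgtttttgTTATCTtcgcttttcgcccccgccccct

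Promoters of 7 of the 9 genes carried a peak in all 4 lists, and those of Ppbp and Vwf carried none in any list. A promoter was counted for a list when one of its peaks came to 1000 bp or closer to an annotated protein-coding start. Over all protein-coding genes, 51.3% had such a peak in all 4 lists and 27.8% in none. List by list, 58.8% and 66.4% of all genes had one in G1E-ER4 lists 1 and 2 and 63.3% and 58.9% in G1E lists 1 and 2, beside 7 of the 9 members each time. No member had a promoter peak in the lists of 1 state only, which held for 1.18% of genes in G1E-ER4 and 0.845% in G1E. With the stricter demand that a peak cover the start itself in all 4 lists, 4 members remained (Itga2b, Gp1ba, Gp5 and Pf4), against 45.4% of all genes. When a summit had to lie within 1000 bp of the start, 4 members were again counted (Itga2b, Gp1ba, Pf4 and Treml1), against 45.6% of all genes. Among the strongest 20000 peaks of each list, only Itga2b and Gp1ba kept a promoter peak in all 4 lists, and Pf4, Treml1, Ppbp and Vwf had none. That is 2 and 4 of the 9, where 37.6% of all genes had such a peak in all 4 lists and 48.3% in none.

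**Figure D1:**
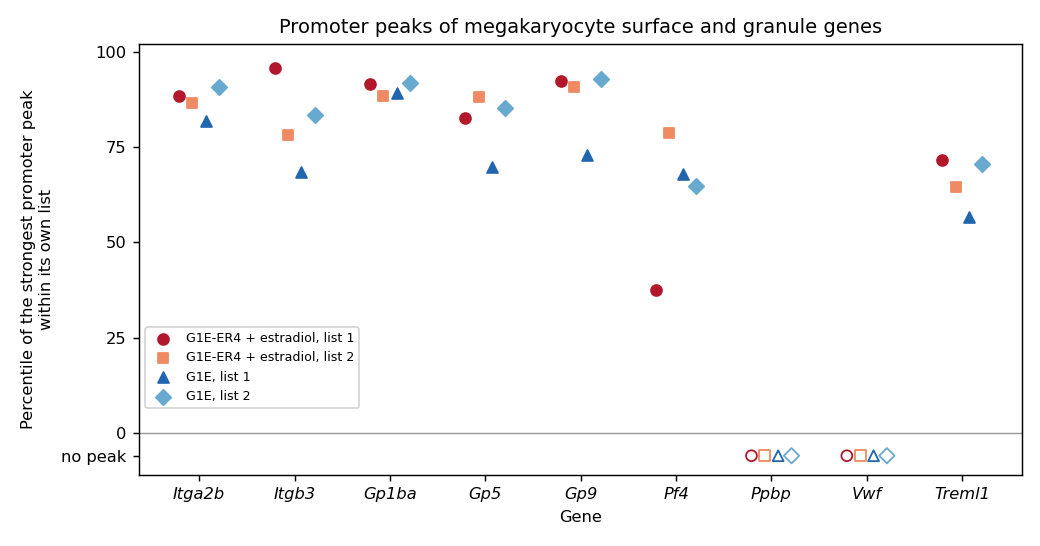
Percentile within its list (vertical axis) of the strongest peak reaching within 1000 bp of a start, for each gene (horizontal axis) and each of the 4 lists (points). Gp1ba lies between 88.3 and 91.8 in all lists, Pf4 spreads from 37.5 to 78.6, and the open symbols under the zero line show Ppbp and Vwf without a promoter peak.

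Itga2b (chr11:102314611-102331436, minus strand), the alpha chain of the fibrinogen receptor, held the site with the highest mean percentile of the set. Its promoter peak covered the start in every list, with percentiles of 88.4 and 86.6 in G1E-ER4 lists 1 and 2, against 81.7 and 90.8 in G1E lists 1 and 2. The states overlapped there. A stronger intron summit lay 2.7 kb inside the gene, with percentiles of 96.3 and 97.6 in G1E-ER4, against 98.2 and 97.3 in G1E, and its state means differed by 0.776 points. The summits of the 4 lists fell within 82 bp of each other. This is the window printed above as the first summit inside the gene, with a GC content of 70.5% and no GATA or ETS word. Merging joined it with the promoter into 1 region of 4916 bp (chr11:102327287-102332202). The first protein-coding start of Itga2b, at 102331197, lies inside the annotated gene, which extends to 102331436. The window printed above as before that start therefore lies within the annotated gene.

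Further inside Itga2b, an intron summit 13.7 kb from the start stood at percentiles 72.6 and 91.9 in G1E-ER4, against 91.8 and 87.8 in G1E. G1E-ER4 list 1 was the lowest here, and the states overlapped. Upstream, an intron of the neighbouring gene Gpatch8 held a summit 17.3 kb from the Itga2b start, at 87.9 and 54.2 in G1E-ER4, against 81.7 and 78.9 in G1E. Beyond the 3′ end of Itga2b, a wide region of 18779 bp reached the promoter of Fam171a2 and an intron of Grn. Its strongest summit, in the Grn intron, had percentiles of 96.5 and 89.4 in G1E-ER4, against 87.2 and 86.9 in G1E. A weaker site in Gpatch8 was seen in both G1E lists alone (chr11:102349101-102349597, percentiles 45.1 and 57.0). Peaks were dense in this window, at 120 per 100 kb over the 4 lists together, against a median of 28.3 over all genes. That count takes in the peaks of the wide region at Grn and Fam171a2 and those in Gpatch8, which lie at neighbouring genes.

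Itgb3 (chr11:104469370-104531790, plus strand), the beta chain of the same receptor, had the most sites, 35 in all, of which 19 were in a single list. Promoter peaks stood at percentiles 95.8 and 78.0 in G1E-ER4, against 68.5 and 83.4 in G1E. In every list the summit of that peak lay inside the gene rather than at the start. In G1E-ER4 list 1 the peak began 134 bp past the start with its summit 3.7 kb inside, and in G1E list 1 the peak that covered the start was at percentile 11.9. That summit in the intron, 3.7 kb from the start, was found in all 4 lists, at percentiles 95.8 and 82.3 in G1E-ER4, against 73.9 and 82.8 in G1E.

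An intron site 14.2 kb into Itgb3 (chr11:104483077-104484755) had the widest gap between the states among the sites of all 4 lists. Its percentiles were 93.8 and 91.1 in G1E-ER4, against 16.0 and 75.5 in G1E. Both G1E-ER4 lists thus lay above both G1E lists, with means 46.7 points apart, but the 2 G1E lists themselves differed by 59.6 points. The window printed above for this site holds 2 GATA words and 1 ETS word. Another intron summit at 18.1 kb stood at 50.8 and 76.3 in G1E-ER4, against 10.1 and 72.6 in G1E, so the states overlapped and G1E list 1 was again the lowest. Outside the gene, a summit 17.7 kb upstream, in an intron of Myl4, reached 94.2 and 89.4 in G1E-ER4, against 75.7 and 86.5 in G1E. Towards the end of the gene, a region at chr11:104521944-104525997 held percentiles 85.9 and 86.8 in G1E-ER4, against 85.3 and 95.7 in G1E. One weak site over a coding exon was in both G1E-ER4 lists alone (chr11:104493178-104493890, percentiles 16.3 and 42.4).

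Gp1ba (chr11:70452624-70456328, plus strand) encodes the subunit that binds von Willebrand factor. Its promoter was the most even of the set. The peak covered the start in every list, with percentiles of 91.4 and 88.3 in G1E-ER4, against 89.2 and 91.8 in G1E, and the 4 summits lay within 50 bp of each other. State means differed by 0.673 points, less than the gap between lists of either state. The 200 bp before the start, printed above, hold 3 GATA words and 1 ETS word. A summit 9.4 kb upstream, between genes, was lower in both G1E-ER4 lists (70.6 and 60.4) than in both G1E lists (80.9 and 85.3). A site 2.1 kb upstream had percentiles of 12.6 and 86.7 in G1E-ER4 and 91.0 in G1E list 1, with no peak in G1E list 2, so it split the lists within both states. A weak site further upstream was in the G1E lists alone (chr11:70436568-70436913, percentiles 26.3 and 37.4). Downstream, regions at the promoters of Slc25a11 and Rnf167 and of Pfn1 and Eno3 reached percentiles between 90.6 and 95.2 in every list. These belong to the neighbouring genes, and they make up part of the 112 peaks per 100 kb of this window.

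Gp9 (chr6:87728130-87729756, plus strand), the small subunit of the same receptor, had a peak upstream of the start in every list, and the start itself was covered in G1E list 2 and in no other list. A summit 2.1 kb upstream stood at percentiles 92.4 and 90.8 in G1E-ER4, against 87.9 and 92.9 in G1E, within 51 bp in the 4 lists. Over the gene itself a second site was in 3 lists, at 67.4 in G1E-ER4 list 2 and 72.9 and 61.7 in G1E lists 1 and 2, and G1E-ER4 list 1 had no peak there. That list counts as having a Gp9 promoter peak only because the upstream peak ends 995 bp from the start. The window printed above for the upstream summit has 1 GATA word, which also lies at 7 or 8 bases from a CTG, the spacing of a known pair of a partial E-box and GATA.

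Around Gp9, a summit 12.8 kb downstream, in a UTR of Rab43, had percentiles 92.9 and 91.7 in G1E-ER4, against 89.1 and 84.7 in G1E. Both G1E-ER4 lists lay above both G1E lists, by 5.36 points in the mean. An intron site of Rab43, 18.4 kb from the Gp9 start (chr6:87745258-87748208), was in both G1E-ER4 lists, at 68.6 and 81.5, and in neither G1E list. On the other side, a region 14.6 kb upstream (chr6:87712136-87714326) stood at 89.1 and 87.1 in G1E-ER4, against 91.8 and 92.0 in G1E.

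Gp5 (chr16:30307772-30310865, minus strand), the remaining subunit of that receptor in the set, was covered by 1 merged region of 5525 bp that took in the start and the coding exon. The strongest peak at the promoter had percentiles 82.6 and 88.1 in G1E-ER4, against 69.8 and 85.2 in G1E. Position differed between lists. The peak over the start itself ranked at 7.75 in G1E-ER4 list 2 and at 68.7 in G1E list 1, while the strongest summit of G1E-ER4 list 2 lay in the coding exon. No other site of the Gp5 window was in all 4 lists, and 9 of its 11 sites were in a single list.

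Treml1 (chr17:48499241-48506499, plus strand) had a promoter region of middle rank, at percentiles 71.6 and 64.4 in G1E-ER4, against 56.7 and 70.6 in G1E, with the shared summit 642 bp inside the gene, in an intron. The states overlapped, and this was its only site in all 4 lists. At a distance, 2 sites were seen in G1E alone, in both lists. One lay 17.9 kb upstream (chr17:48480882-48481762, percentiles 70.0 and 79.1) and the other 26.4 kb from the start, past the gene (chr17:48525011-48526050, percentiles 56.9 and 51.7).

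Pf4 and Ppbp, the chemokine genes of the alpha-granule, are neighbours on chromosome 5 and differed at their starts. The Pf4 start (gene chr5:91201461-91202407, plus strand) was covered in every list, at percentiles 37.5 and 78.6 in G1E-ER4, against 67.9 and 64.7 in G1E. The 2 G1E-ER4 lists were its lowest and highest. The start of Ppbp (gene chr5:91197544-91199086, plus strand) had no peak within 1000 bp in any list. Its nearest peaks ended 3.8 and 2.3 kb away in G1E-ER4 and 3.6 and 3.0 kb away in G1E, and those at 3.8, 3.6 and 3.0 kb lie at the Pf4 promoter. The 200 bp before the Ppbp start, printed above, hold no GATA or ETS word, and the same stretch before Pf4 holds 1 ETS word and no GATA word. Both genes take in the same 8 sites, because their windows overlap almost entirely.

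One site between genes lay 3.3 kb past the Pf4 start and 7.2 kb past that of Ppbp (chr5:91203902-91205842). It ranked above the Pf4 promoter in 3 lists, with percentiles of 74.7 and 76.7 in G1E-ER4, against 86.3 and 90.8 in G1E, while in G1E-ER4 list 2 the Pf4 promoter was higher. Both G1E-ER4 lists lay below both G1E lists, with means 12.8 points apart and gaps within states of 1.99 and 4.47 points. The window printed above for this site holds 2 GATA words. A region at the Cxcl3 promoter, another chemokine gene, showed the same order, with 44.3 and 60.7 in G1E-ER4, against 71.3 and 70.9 in G1E. At the promoter of Cxcl5, on the other side, a site was present in 3 lists, at 79.5 in G1E-ER4 list 2 and 75.6 and 73.3 in G1E.

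Vwf (chr6:125496792-125636697, plus strand) was the emptiest locus. Over its window of 179.9 kb the lists held 2 and 5 peaks in G1E-ER4 and 5 and 3 in G1E, or 8.34 per 100 kb over the 4 lists. Each of the 15 peaks was a site of its own, in 1 list and no other. The strongest peak of each list ranked at percentiles 39.2 and 49.0 in G1E-ER4, against 87.3 and 19.2 in G1E, at 4 different places. None of its 4 annotated starts had a peak within 1000 bp, and the nearest peaks ended 23.9 and 1.6 kb away in G1E-ER4 and 3.0 and 4.8 kb away in G1E. A share of 27.5% of all protein-coding genes had fewer peaks per 100 kb in their window. The absence of a peak means that a place was not among the 100000 peaks of a list, not that no DNase I cutting took place there.

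**Figure D2:**
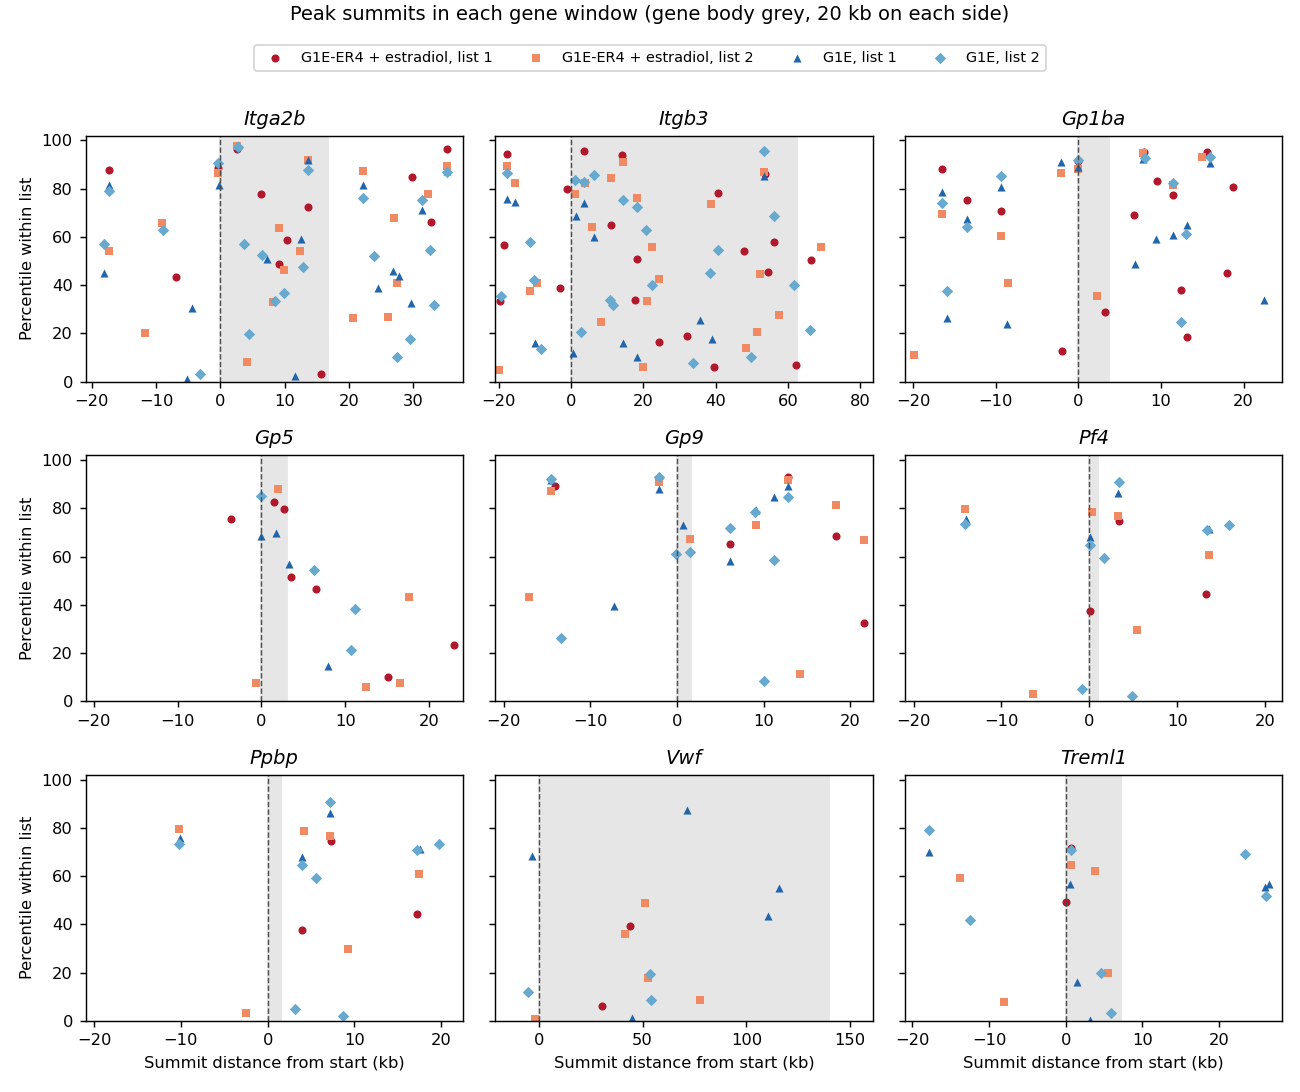
Each panel plots the peak summits of 1 gene by distance from its first start in kb (horizontal axis, dashed line at the start) and percentile within the list (vertical axis), with the gene body in grey and a symbol for each of the 4 lists. Clusters of 4 symbols mark sites found in every list, as 2.7 kb inside Itga2b, while the 15 summits at Vwf are scattered, 1 list at a time.

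Distal sites in all 4 lists, meaning sites away from the gene's own promoter, numbered 17. They lay in the windows of 6 of the 9 genes, all but Gp5, Treml1 and Vwf. Over all protein-coding genes 59.2% had at least 1 such site. Of the 17, 4 reached promoters of neighbouring genes (Fam171a2, Slc25a11 with Rnf167, Pfn1 with Eno3, and Cxcl3) and 13 did not. The region that reached Fam171a2 had its strongest summit in an intron of Grn. All 24 sites of the 4 lists, own promoters included, made up 20.2% of the 119 sites, against 15.7% of all merged regions. Another 64 sites (53.8%) were in a single list, against 58.5% over the genome, and 23 of these came from G1E-ER4 list 2. The median of the mean percentile was 83.0 for the 24 sites of all lists, close to the 80.2 of all such regions.

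Sites that set the states apart took up shares of these windows close to their shares of the genome. Both G1E-ER4 lists, without either G1E list, had 2 sites (1.68%), and the reverse held for 4 (3.36%), against 2.35% and 3.99% of all merged regions. These counts rest on few sites and on single lists. They became 27 and 7 without G1E-ER4 list 1, 17 and 10 without G1E-ER4 list 2, 3 and 20 without G1E list 1, and 6 and 19 without G1E list 2, where 1 list alone stood for a state. With 10 kb in place of 20 kb on each side they were 1 and 0.

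Among the 24 sites of all 4 lists, both G1E-ER4 percentiles lay above both G1E percentiles at 5 (20.8%) and below them at 4 (16.7%). Over all regions of the 4 lists the same orders held for 19.0% and 16.2%. The states overlapped at the remaining 15 sites, among them all 7 regions at the members' own promoters. Overlap was common at promoters. By the strongest promoter peak, it held for 8172 of the 11488 genes with a promoter peak in all 4 lists. Means apart by 20 points or more, with no overlap, were found at 1 site higher in G1E-ER4, the Itgb3 intron site at 14.2 kb, and at 0 sites higher in G1E. Such gaps held for 5.90% and 5.50% of regions over the genome.

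**Figure D3:**
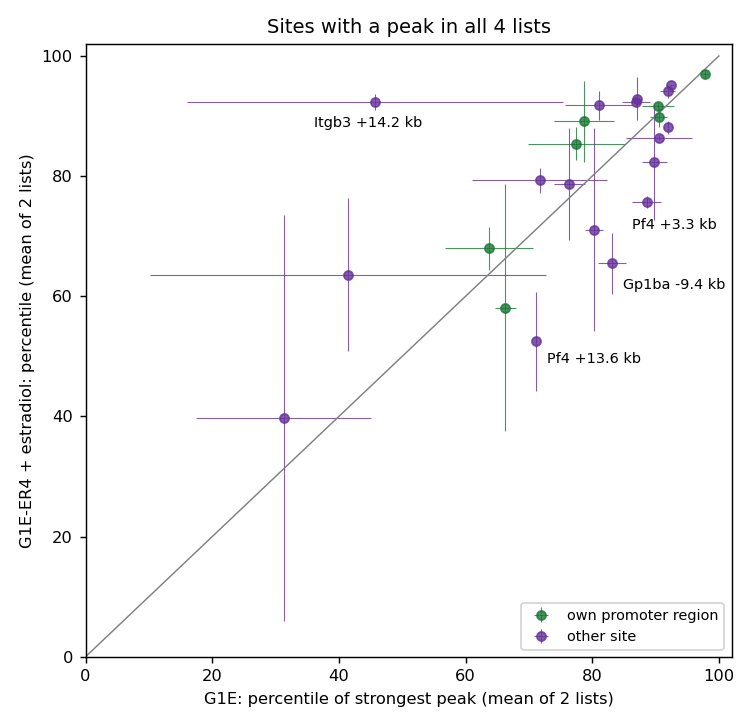
Each point is 1 of the 24 sites with a peak in all 4 lists, by its mean percentile over the 2 G1E lists (horizontal axis) and over the 2 G1E-ER4 lists (vertical axis), with bars spanning the 2 lists of a state and the grey line marking equal values. Green points, the 7 own promoter regions, have state ranges that overlap, and the Itgb3 site at 14.2 kb has a horizontal bar from 16.0 to 75.5.

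In sequence, most of these promoters were poor in CpG. The ratio of observed to expected CpG in the 1000 bp around the first start was 0.24 at Itga2b, 0.09 at Gp1ba, 0.18 at Gp5, 0.10 at Gp9 and 0.19 at Treml1. It was 0.13 at Ppbp and 0.19 at Vwf, the genes without a promoter peak, so the ratio did not separate them from the others. Pf4 (0.40) and Itgb3 (0.66) were higher, and the median of all protein-coding genes was 0.55. Of the 7 members below a ratio of 0.4, 5 had a promoter peak in all 4 lists and 2 in none. Of all 8894 genes below that ratio, 15.5% had a promoter peak in all 4 lists and 61.7% in none, while of genes at or above it 75.0% had one in all 4. No test of these shares was made, since the members were chosen by name and with earlier results known.

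Words of blood transcription factors were searched on both strands in 9 windows of 200 bp before the first starts. A GATA word was present in 2 of the 9, Gp1ba and Gp5 with 3 matches each, against 19.9% of all protein-coding genes. An ETS word was present in 5 of the 9 (Itga2b, Gp1ba, Gp5, Gp9 and Pf4), against 35.5%. The 2 matches before Itga2b are in capitals in the sequence above. Neither Ppbp nor Vwf had either word, but Itgb3 and Treml1, which had promoter peaks, had none as well. The RUNX word TGTGGT, found in 10.3% of all such windows, and the NFE2 and AP-1 word TGAGTCA, found in 3.04%, were in 0 of the 9.

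The same search was made around 14 summits that lay over 1 kb from the start and recurred in all 4 lists, joined where neighbouring summits were within 100 bp. Of these, 10 lay in merged regions that reach no protein-coding start, and they are set beside 18405 such distal regions over the genome, each read around its strongest summit. GATA words were in 5 of the 10, against 37.2%, and ETS words in 3, against 33.5%. RUNX words were in 5, against 18.5%, and the word TGAGTCA in 0, against 6.63%. A CTG followed after 7 or 8 bases by AGATAA or TGATAA, which overlaps the GATA words, was in 1 of the 10, the Itgb3 site at 14.2 kb, against 4.81%. Of the 4 summits in regions that reach a start, the Gp9 site at 2.1 kb and the Itgb3 site at 3.7 kb also held that spacing. A match describes the letters of a window and does not show that a factor binds there.

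Other genes of the lineage were read in the same way from lists of platelet and megakaryocyte genes. Of 22 other genes of platelet receptors and their signalling, 9 had a promoter peak in all 4 lists (40.9%) and 5 in none. Over all protein-coding genes these shares were 51.3% and 27.8%. The highest were P2ry1, an ADP receptor, with a mean percentile of 97.4, and Tln1 (94.4) and Fermt3 (89.9), which bind integrin tails and are needed to activate the Itga2b and Itgb3 receptor. Those with no peak were the collagen receptor gene Gp6, Clec1b, the ADP receptor gene P2ry12, Cd226 and Cd36. Of 20 other genes of granules, enzymes and cytoskeleton, 8 had a promoter peak in all 4 lists (40.0%) and 5 in none. Nbeal2, needed to form alpha-granules, reached a mean percentile of 97.5, Vps33b, a sorting protein gene of the same granules, 95.5, and Tbxas1, the thromboxane synthase gene, 94.3. The genes without a peak were Selp, F5, F13a1, Mmrn1 and Alox12, of which the products of Selp, F5 and Mmrn1 are carried in alpha-granules.

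Transcription factors of the megakaryocyte lineage, most of which also act in red cells, were open at the promoter in all 4 lists for 14 of 16 genes (87.5%). The other 2 had a promoter peak in 2 and in 3 lists. Over all protein-coding genes, 51.3% had one in all 4 lists. Gata2 (mean percentile 97.7), Mafk (97.6) and Mafg (97.5) were the highest. Red cell surface and membrane genes had one for 17 of 20 (85.0%), led by Ank1 (98.7), Spnb1 (97.2) and Slc2a1 (96.6). Among promoters open in all 4 lists, the median of the mean percentile was 81.4 for the surface and granule genes. It was 85.5 for the other platelet receptor and signalling genes and 85.6 for the other granule, enzyme and cytoskeleton genes. Red cell membrane genes had a median of 90.0 and the transcription factors 95.0. Over all genes with such promoters this median was 93.2. None of these 4 lists had a gene with a promoter peak in both lists of 1 state and none of the other.

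**Figure D4:**
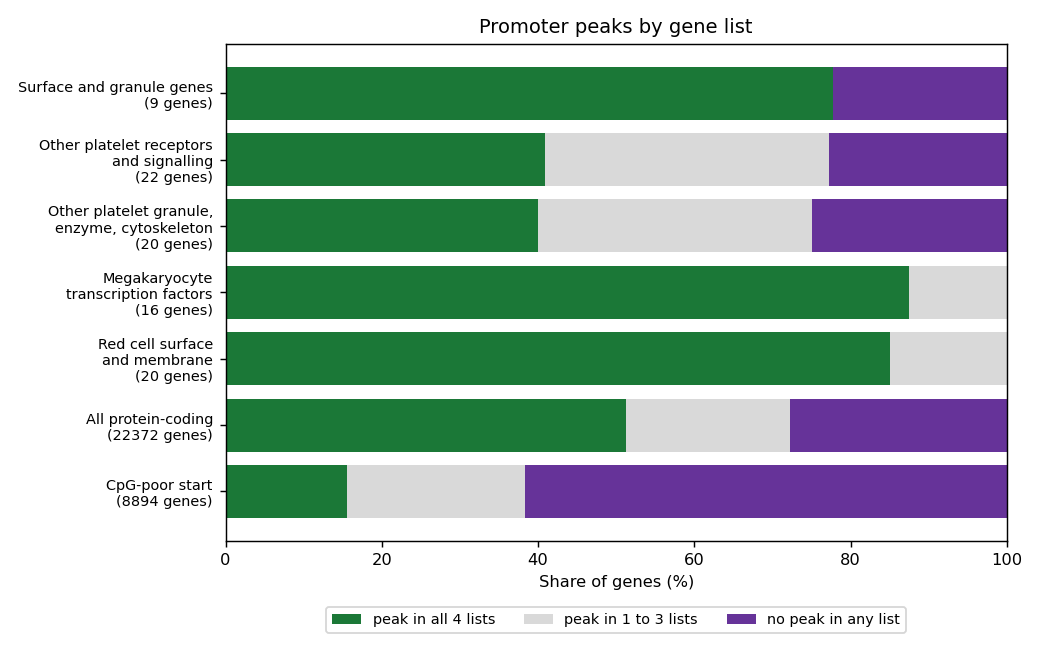
Stacked bars give the share of genes in percent (horizontal axis) with a promoter peak in all 4 lists, in 1 to 3 lists and in no list, for the 9 surface and granule genes, the 4 comparison lists, all 22372 protein-coding genes and the 8894 genes with a CpG-poor start. The surface and granule genes have no gene in 1 to 3 lists, and the bars for transcription factors and red cell genes have no part without a peak.

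Most markers of the labelled cell type had a promoter peak in all 4 lists. Of 8 erythroid markers, 6 were open at the start in every list, with Epor and Slc4a1 in that number, and 0 lacked a peak in all of them. For other blood cells, the counts with a promoter peak in every list were 0 of 4 T cell markers and 1 of 4 B cell markers (Pax5, mean percentile 29.9). They were 1 of 5 granulocyte and monocyte markers (Csf1r, 28.1) and 0 of 5 mast cell markers. Cd3e, Cd2, Ly6g, Mcpt4 and Fcer1a had no promoter peak in any list.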

How the data were processed

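DNase-seq was read from 4 peak lists that the authors deposited, 2 for each of 2 samples, with groups taken from the cell line label. As the series design text has it, short tags were aligned with Bowtie, a tag matching several places was assigned to its best one, lanes were combined per replicate, F-seq made a smoothed density, and peaks were called per list from a gamma fit. Their genome build is mm9, per the submitters' processing notes, and the sources used here state no tool versions. A tag assigned to 1 of several places can put a peak in a repeat. Peak strength is the signal value that the authors deposited, an F-seq density with no stated scaling between lists. It was used only to rank peaks within a list as a percentile. Score, p and q columns hold 1 constant value each and were not used.

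Genes, starts and exons came from the GENCODE vM1 protein-coding annotation, and sequence from the NCBIM37 genome, which is mm9. Coordinates are 1-based. Calculations used Python 3.11.15 with numpy 2.4.6 and pandas 2.3.3. Start calls, merging and the motif search were tested on simulated data. Since each state is 1 sample, and 2 lists against 2 could not give a two-sided exact permutation p under 0.333, results are counts and values with the share over all features beside them. Members and lists were chosen with earlier results of these data known. The rule for named genes took all members, neighbours with a peak at their start, and of each list the 3 highest promoters open in all 4 lists, genes open in 1 state only and genes without a peak. Sites named were own promoters, the strongest distal sites and sites of 1 state. Other named sites, Gp1bb and Tubb1 were chosen after their values were seen. A few genes of the lists are counted but not reported here by name. One listed red cell gene was matched through an older symbol. Alternatives were other start distances, summits in place of peak edges, stricter ranks, other joins, other flanks and leaving out each list.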

Additional observations from a re-analysis of the deposited data

How the results depend on the processing

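Leaving out each list in turn kept 7 genes with a promoter peak in all remaining lists and 2 with none, and gave 18 to 25 distal sites in all lists, 218 to 237 peaks, 3 to 27 sites of G1E-ER4 alone and 7 to 20 of G1E alone. The last 2 ranges rise because 1 list then stands for a state. Genes with a promoter peak in all lists fell to 4 when a summit had to lie within 1000 bp and to 2 in the top 20000 peaks, where 4 genes had none. With peaks reaching within 2500 bp, 0 genes had none, since G1E-ER4 list 2 then met Ppbp and Vwf. Distal sites in all lists numbered 10 with 50% reciprocal overlap, 39 with 50 kb flanks and 6 in the top 20000 peaks. Sites of G1E-ER4 alone numbered 4 with chained summits, and 1 each with reciprocal overlap, 10 kb flanks and the top 20000. Sites of G1E alone numbered 8 with chained summits, 0 with 10 kb flanks, 11 with 50 kb flanks, and 2 each in the top 50% and the top 20000. Peaks numbered 554 with 50 kb flanks and 185 in the top 50%. No paired analysis was possible because each state is 1 sample and the labels give both the same single replicate number. Depth is unknown, so no limit of detection can be given for promoters without a peak.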

Other observations

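Within the lists of other platelet genes, 2 genes are given here that were chosen after their values were seen. Gp1bb encodes the subunit that joins Gp1ba and Gp9 in the receptor for von Willebrand factor. Its promoter had percentiles of 80.9 and 65.8 in G1E-ER4 lists 1 and 2, against 51.7 and 91.0 in G1E lists 1 and 2, so the lists of a state differed more than the states. With Gp1bb, all 4 genes of that receptor had a promoter peak in all 4 lists, which held for 51.3% of all protein-coding genes. Gp9 counted in G1E-ER4 list 1 only through an upstream peak ending 995 bp from its start. When a summit had to lie within 1000 bp of the start, Gp5 had one in 3 lists and Gp9 in 2.

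Tubb1, the tubulin of platelet microtubules, stood at percentiles 91.6 and 91.5 in G1E-ER4, against 51.7 and 48.6 in G1E. Both G1E-ER4 lists lay above both G1E lists, with the lists of each state close together. It was picked for this gap, and the difference was not tested. Of the 17 genes of both platelet lists with a promoter peak in all 4 lists, Tubb1 included, the states overlapped at 11. Both G1E-ER4 lists were higher at 6 and both G1E lists at 0. Over all 11488 genes with such promoters, the states overlapped at 8172, G1E-ER4 was higher at 1797 and G1E at 1519. Tubb1 is 1 of 2 of the 17 (11.8%) with G1E-ER4 higher and means 20 points or more apart. Over all 11488 genes, 3.91% had a gap of that size with G1E-ER4 higher.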
